A study of Mus musculus with 6 samples.

Results

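The protein tyrosine phosphatases and dual-specificity phosphatases were followed in double-negative thymocytes, an early stage of T cell development before CD4 and CD8 appear, with and without a mutation of Ezh2. Members were every probe set that the platform table assigns to exactly 1 gene named Ptpn, Ptp4a or Dusp with a number, Ptpr with 1 or 2 letters, or Ptprz1. This gave 62 probe sets of 42 genes among the 12488 probe sets of the array and the 8251 genes that have such a probe set. The members were chosen by symbol, but the family was taken up with the log2 differences between these same arrays already known, the rise of Ptpn13 among them. Its values are therefore a description, not independent support.

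RNA of 3 samples from RAG1-deficient mice and of 3 from RAG1/Ezh2 double mutant mice was hybridised to 1 mouse Affymetrix expression array per sample. All 6 samples came from mice labelled RAG1-deficient or RAG1 mutant. RAG1 is the recombinase subunit without which antigen receptor genes are not assembled and thymocytes stay double-negative. The double mutant carries a mutation of Ezh2 too, the methyltransferase of Polycomb repressive complex 2 that places H3K27me3. The labels do not name the alleles, a Cre driver, the strain, age or sex, and do not say whether samples came from separate animals, so the p-values reflect sample-to-sample spread alone, and that spread may be technical. The titles come in 3 styles, called numbered, Rag and Thy here, with 1 RAG1-deficient and 1 double mutant array per style. WT closes the title of the numbered and of the Thy RAG1-deficient array, whose descriptions name a RAG1 deficiency or mutation, and the titles of the Rag style do not mention the double-negative stage. Values are listed in the order numbered, Rag, Thy for both groups.

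A protein tyrosine phosphatase removes phosphate from tyrosine through a cysteine in its catalytic loop, and a dual-specificity phosphatase also removes it from serine and threonine. In thymocytes some of these enzymes act on kinases of the T cell receptor pathway. CD45 activates Lck by taking off an inhibitory phosphate, Ptpn22 and Ptpn6 take off activating ones, and the MAP kinase phosphatases of the Dusp family switch off ERK, JNK and p38 and are themselves induced by signalling.

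The targeted gene was checked first. Ezh2 read 1435, 1641 and 1790 in the RAG1-deficient and 292, 651 and 724 in the double mutant arrays. The groups did not overlap, and the double mutant mean was 0.342 of the other. It fell in the paired limma fit, which takes title style as a block (log2 difference -1.60, adjusted p = 0.0261), and did not pass in the unpaired fit (adjusted p = 0.332). Signal remained well above the filter of 86.5 in the double mutant, and the labels do not say which part of Ezh2 is altered, so whether the probes lie in it was not tested. All log2 differences are the double mutant minus the RAG1-deficient mean of log2(intensity + 23), and adjusted p are Benjamini-Hochberg values over all 7642 tested probe sets, with a threshold of 0.05. Standard errors are those of the paired fit unless stated. Of 16 listed markers of double-negative thymocytes, 14 were on the array. Among them Dntt, the terminal transferase of early lymphocytes, was at or above 16407 by its highest-mean probe set and Cd3g at or above 13676 on every array. A Rag1 probe set read 5171 to 7264, and as the labels do not say which part of Rag1 is missing, it does not check the RAG1 genotype. Of 13 tested genes of this list 2 lay above and 11 below 0, with a median log2 difference of -0.23, and 0 passed in either limma fit. Before adjustment, the paired fit gave p under 0.05 to 1 higher and 5 lower of their 17 probe sets, and the unpaired fit to 2 in all. Over all tested probe sets the paired fit gave it to 7.73% higher and 5.4% lower, and the unpaired fit to 3.19%. RAG1-deficient replicate 1 stood apart with Cd8a at 2973, against at most 81.3 elsewhere, and Cd8b1 at 8426, against at most 164. High levels of both go against the double-negative label of that array, and whether the label holds was not tested. Arrays of a title style deviated together, with correlations of 0.570 (numbered), 0.736 (Rag) and 0.602 (Thy) across genes. Between 55.2% and 64.3% of probe sets lay above the filter on each array, with both Rag arrays lowest, and the 3' to 5' signal ratio of the Actb controls was highest on those arrays as well, at 2.26 and 2.77 against 1.24 to 1.99 elsewhere.

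The sequences before the start sites of the 4 tested members whose groups did not overlap are shown because they differ in CpG content, a feature that marks many Polycomb-bound promoters. Each is the 250 bases before a RefSeq start (build GRCm38.p6), 5′ to 3′, with each CG dinucleotide in capitals. The windows are Ptpn13 (chr5:103424942-103425191, plus strand), Ptprs (chr17:56476481-56476730, minus strand), Ptpn22 (chr3:103859545-103859794, plus strand) and Ptpn6 (chr6:124738710-124738959, minus strand).
Ptpn13: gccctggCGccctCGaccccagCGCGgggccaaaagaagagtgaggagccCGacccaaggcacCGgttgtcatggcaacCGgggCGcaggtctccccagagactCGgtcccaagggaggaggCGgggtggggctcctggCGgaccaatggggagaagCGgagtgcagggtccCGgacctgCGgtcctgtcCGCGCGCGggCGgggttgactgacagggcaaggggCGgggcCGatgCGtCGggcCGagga
Ptprs: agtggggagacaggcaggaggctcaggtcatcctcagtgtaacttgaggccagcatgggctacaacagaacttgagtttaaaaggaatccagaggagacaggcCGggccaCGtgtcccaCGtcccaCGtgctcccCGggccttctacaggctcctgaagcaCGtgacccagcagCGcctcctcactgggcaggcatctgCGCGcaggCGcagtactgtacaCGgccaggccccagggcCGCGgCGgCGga
Ptpn22: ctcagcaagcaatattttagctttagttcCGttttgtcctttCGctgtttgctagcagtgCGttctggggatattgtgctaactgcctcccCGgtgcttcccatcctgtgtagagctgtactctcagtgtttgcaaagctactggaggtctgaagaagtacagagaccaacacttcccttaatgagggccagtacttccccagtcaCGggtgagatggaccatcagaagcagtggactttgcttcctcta
Ptpn6: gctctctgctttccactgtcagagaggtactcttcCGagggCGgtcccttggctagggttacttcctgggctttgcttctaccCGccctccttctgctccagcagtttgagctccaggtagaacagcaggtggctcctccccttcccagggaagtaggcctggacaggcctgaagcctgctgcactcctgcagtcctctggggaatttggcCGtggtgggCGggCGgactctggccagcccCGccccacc
The Ptpn13 window held 24 CG, a count that 12.0% of all 32851 windows in the table reached. Ptprs held 15 (27.3% reached this), and its second annotated start 15 as well. The 2 members that read lower held fewer, 7 in Ptpn6 and 5 in Ptpn22, with 2 at the second start of Ptpn22. These 4 were picked by their values. Tested members whose groups overlapped held both more and fewer, with 46 in Ptp4a2 and 3 in Dusp12. The part of Polycomb binding in any of these differences was not tested. Across the family 34 of 42 genes had a window in the table. Taking the start with the most CG for each gene, their median was 20.5, against 6 over all 27025 genes. At least 20 were held by 50% of members against 19.7% of all genes. All genes here means every gene with a window, not limited to genes on the array as the members are. The members without a tested probe set had a median of 28 (10 genes) and the tested ones 18.5 (24 genes). A high CG count was thus also found in members too dim to be tested.

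Ptpn13 stood far above the rest of the family in the size of its difference. It encodes a large non-receptor phosphatase with several PDZ domains that is known to bind the death receptor Fas. Its intensity was 310, 270 and 219 in the RAG1-deficient arrays and 799, 1328 and 1186 in the double mutant arrays. The lowest double mutant array was higher than the highest RAG1-deficient array. The group means were 266 ± 45.7 (SD, n = 3) and 1104 ± 274 (SD, n = 3), a ratio of 4.145. The log2 difference was 1.94 ± 0.22 (SE), with a 95% interval of 1.44 to 2.45 in the paired fit, and 1.30, 2.21 and 2.32 for the numbered, Rag and Thy arrays taken pairwise. Ptpn13 rose in the paired limma fit (adjusted p = 0.0192, higher in 3 of 3 pairs) and did not pass in the unpaired fit (SE 0.26, adjusted p = 0.0608). No other member passed in either fit. Without the numbered pair, which holds the RAG1-deficient array with high Cd8a and Cd8b1, the difference was 2.26 (paired limma adjusted p = 0.0193). By unadjusted p it ranked 7th of the 7642 probe sets in the unpaired and 11th in the paired fit. The paired fit called 0.563% of all tested probe sets higher and 0.105% lower, and the unpaired fit 0.0393% higher and 0% lower. The paired limma call ended without the Thy pair (log2 difference 1.75, adjusted p = 0.111), with no filter on dim probe sets (0.0640) and without the intensity trend in the variance (0.0912), while the unpaired fit called Ptpn13 under a stricter filter (0.0482). It rests on 1 probe set, the only one the platform table gives for Ptpn13.

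**Figure D1:**
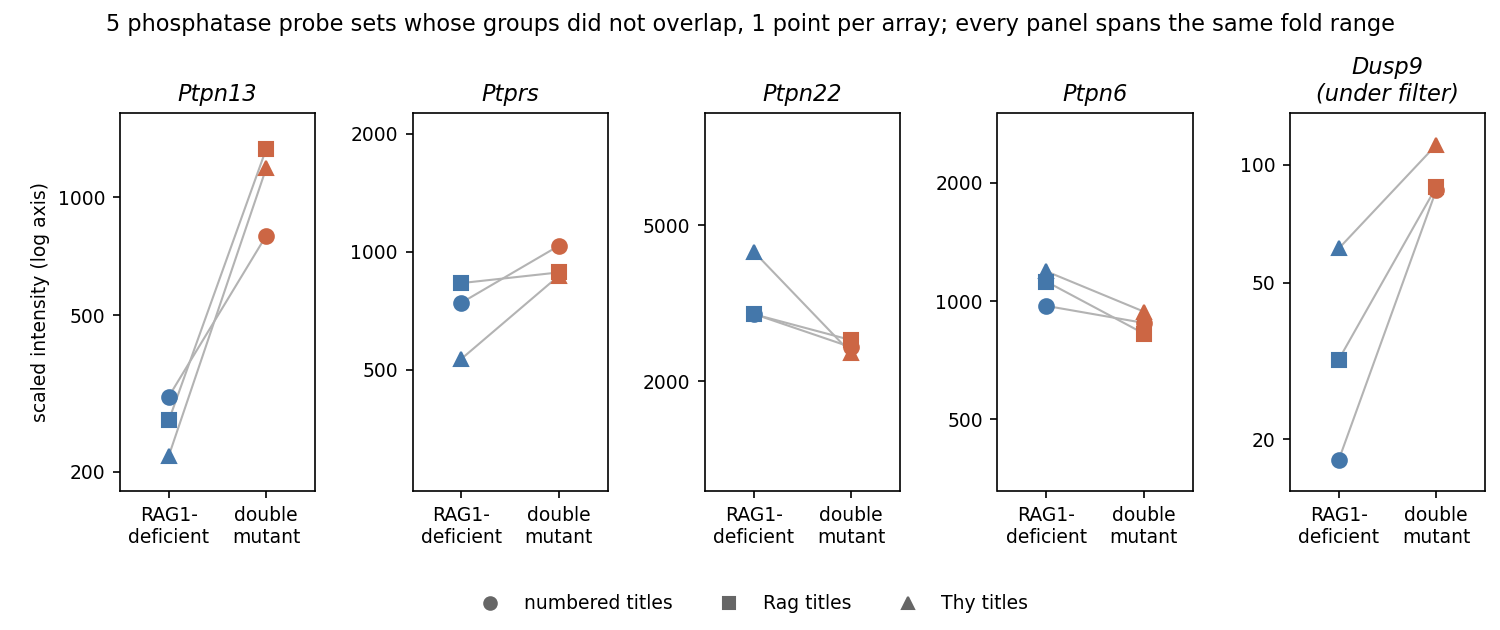
Scaled intensity on a log axis of 5 phosphatase probe sets in RAG1-deficient (blue) and double mutant (orange) samples, 1 point per array, with the marker giving the title style and a grey line joining the arrays of a style; all panels span the same fold range. Ptpn13 goes from 219 to 310 up to 799 to 1328, a wider gap than in the panels of Ptprs, Ptpn22 and Ptpn6. Dusp9 lay under the filter, and the groups overlapped for its other probe set, which is not shown.

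Some markers of NK and cytotoxic cells were higher in the double mutant, as Ptpn13 was. Of 12 listed, 9 were on the array. Of the 7 tested, 4 lay above and 3 below 0. Their summed intensity was 3092 to 4541 in the RAG1-deficient and 8202 to 10346 in the double mutant arrays. Gzma, a granule protease, read 2796, 2163 and 1244 against 8096, 7946 and 4982. Gzma and the related Gzmb rose in the paired limma fit (adjusted p = 0.00356 and 0.0261). Without Gzma, a sum taken after the values were seen, the groups overlapped at 1745 to 2248 and 1680 to 3220. The NK receptor gene Klrd1 had a log2 difference of -0.32, at 494, 937 and 503 against 468, 384 and 643. Prf1, the pore-forming protein of killer cells, and Eomes lay under the filter. The part of these cells in the rise of Ptpn13 was not tested. Of 15 stromal and epithelial markers on the array 9 were tested, with 3 above and 6 below 0 and a median of -0.02. Among them Pdgfrb rose (log2 difference 1.22, paired limma adjusted p = 0.0436), and their summed intensity overlapped at 2261 to 4796 and 2654 to 4701. In bulk RNA a change in the number of cells of a type and a change in RNA per cell cannot be told apart.

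The genes next to Ptpn13 were read for context, taking the 5 protein-coding genes on either side in RefSeq. Of these, Mapk10, Slc10a6 and Aff1 had probe sets of 1 gene. Slc10a6, a sodium-dependent transporter gene directly next to Ptpn13, read 27.5, 12.2 and 20.1 in the RAG1-deficient and 118, 45.4 and 134 in the double mutant arrays. It was higher in all 3 pairs without overlap, but lay above the filter on only 2 arrays and was not tested. Among all probe sets under the filter 2.03% were higher without overlap. Mapk10, the gene on the other side, was dim at 56.8, 41.1 and 41.9 against 36.2, 22.9 and 48.7, and Aff1 had a log2 difference of -0.41 that did not pass (paired limma adjusted p = 0.717).

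Apart from Ptpn13, the other tested non-receptor phosphatases did not pass. Over the 10 together, 6 lay above and 4 below 0, with a median log2 difference of 0.03, against -0.002 over all tested probe sets. Ptpn22, which dephosphorylates Lck and Zap70 together with the kinase Csk, read 2968, 2964 and 4278 in the RAG1-deficient and 2442, 2545 and 2358 in the double mutant arrays. Every double mutant array was lower than every RAG1-deficient one, and the Thy pair was widest apart. Its log2 difference was -0.45 ± 0.15 (SE) and it did not pass (paired limma adjusted p = 0.272). Ptpn6, which encodes SHP-1, a phosphatase recruited by inhibitory receptors, read 972, 1121 and 1191 against 879, 826 and 940, again with every double mutant array lower. The difference of -0.30 ± 0.13 (SE) on the log2 scale did not pass (paired limma adjusted p = 0.382). The probe set of Ptpn6 can detect several related transcripts. Over all tested probe sets 2.92% were lower without overlap. The median over the listed markers of dendritic cells, 8 of 9 on the array, lay on the same side at -0.41. Their summed intensity was 4892 to 28778 in the RAG1-deficient and 4715 to 19761 in the double mutant arrays. Myeloid markers had a median of 0.05 (6 genes above and 4 below 0) and B lineage markers -0.16 (1 above and 5 below). The part of these cells in the lower readings of Ptpn22 and Ptpn6 was not tested. Nor was that of the shift of the double-negative markers given above. Over the unpaired fits that leave out 1 array the difference of Ptpn22 ran from -0.54 without RAG1-deficient replicate 2 to -0.28 without replicate 3, and in the paired fit it was -0.25 without the Thy pair. Ptpn6 ran from -0.38 without RAG1-deficient replicate 1 to -0.24 without replicate 3, and neither gene passed in any of these.

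Ptpn2, which acts on JAK and STAT proteins, read 406, 789 and 765 against 527, 1137 and 703, higher in the numbered and Rag pairs and lower in the Thy pair. Ptpn12, a phosphatase of cytoskeletal adaptors, read 83.8, 55.5 and 171 against 104, 119 and 140. Both groups overlapped for these genes and neither passed. Ptpn23, which takes part in endosomal sorting, had the lowest log2 difference among tested members, -0.85 ± 0.33 (SE). It read 240, 340 and 206 against 167, 290 and 39.9, so the size came mainly from the Thy pair (-1.86, against -0.47 and -0.22 in the others), and it did not pass (paired limma adjusted p = 0.342). Ptpn1, the insulin and leptin receptor phosphatase, had 0.25 ± 0.12 (SE) and was higher in each pair, by 0.14 to 0.30, without passing (paired limma adjusted p = 0.417). Ptpn9, Ptpn14 and Ptpn18 lay between -0.03 and 0.03. Ptpn11, which encodes SHP-2, read 7.0, 6.1 and 31.5 against 6.3, 3.8 and 18.9 and was not tested, as were Ptpn5, Ptpn20 and Ptpn21.

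Among receptor-type phosphatases no probe set passed. Of 31 probe sets of 17 genes, 12 probe sets of 10 genes were tested, with 4 above and 8 below 0 and a median log2 difference of -0.09. Ptprc, the gene of CD45, read 2144, 1588 and 2286 in the RAG1-deficient and 2103, 2070 and 2348 in the double mutant arrays by the probe set with the highest mean. The groups overlapped, with a log2 difference of 0.13 and a 95% interval of -0.17 to 0.43 in the paired limma fit. Another probe set of Ptprc gave -0.08, at 2289, 620 and 1120 against 1527, 587 and 1505, and the third lay under the filter. Ptprcap, which encodes a CD45-associated protein and falls outside the naming rule, read 9792, 7186 and 6769 against 8805, 7510 and 7017 (log2 difference -0.01). Ptpra and Ptpre encode closely related receptors that act on Src family kinases. Ptpra read 287, 230.1 and 386 against 266, 261 and 283, with a log2 difference of -0.12 ± 0.19 (SE). Ptpre read 699, 835 and 1030 against 793, 688 and 944, with -0.07 ± 0.14 (SE). The groups overlapped for both.

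Ptprs was the only tested receptor-type member without overlap between the groups. Over all tested probe sets 4.21% were higher and 2.92% lower without overlap. Ptprs encodes a receptor that binds proteoglycans and is best known from neurons. It read 742, 832 and 533 in the RAG1-deficient and 1036, 886 and 869 in the double mutant arrays, with the Rag arrays closest to each other. The log2 difference was 0.41 ± 0.15 (SE), and 0.47, 0.09 and 0.68 in the 3 pairs, and did not pass (paired limma adjusted p = 0.329). It was 0.23 in the unpaired fit without RAG1-deficient replicate 3. Its relative Ptprf read 1270, 2077 and 927 against 759, 1697 and 747, lower in every pair although the groups overlapped, with -0.44 and a paired adjusted p of 0.255. Ptprk, a receptor of cell contacts, read 196, 81.5 and 88.9 against 171, 171 and 209, with a log2 difference of 0.59 that was below 0 in the numbered pair (-0.18). The 2 tested probe sets of Ptprv differed, one at -0.65 and lower in every pair, the other at -0.10 with 1.33 in the numbered and -0.93 in the Rag pair. Ptprn, Ptprr and Ptpru had log2 differences of -0.27, 0.03 and -0.47. The other 7 genes, Ptprb, Ptprd, Ptprg, Ptprj, Ptprm, Ptpro and Ptprz1, had no tested probe set. A probe set of Ptprj was higher without overlap at a very low level, 4.6, 7.1 and 8.4 against 17.6, 15.0 and 59.0. Of all probe sets under the filter 2.03% were. The other 2 probe sets of Ptprj overlapped, with log2 differences of -0.21 and, for the one with the highest mean, -0.06.

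**Figure D2:**
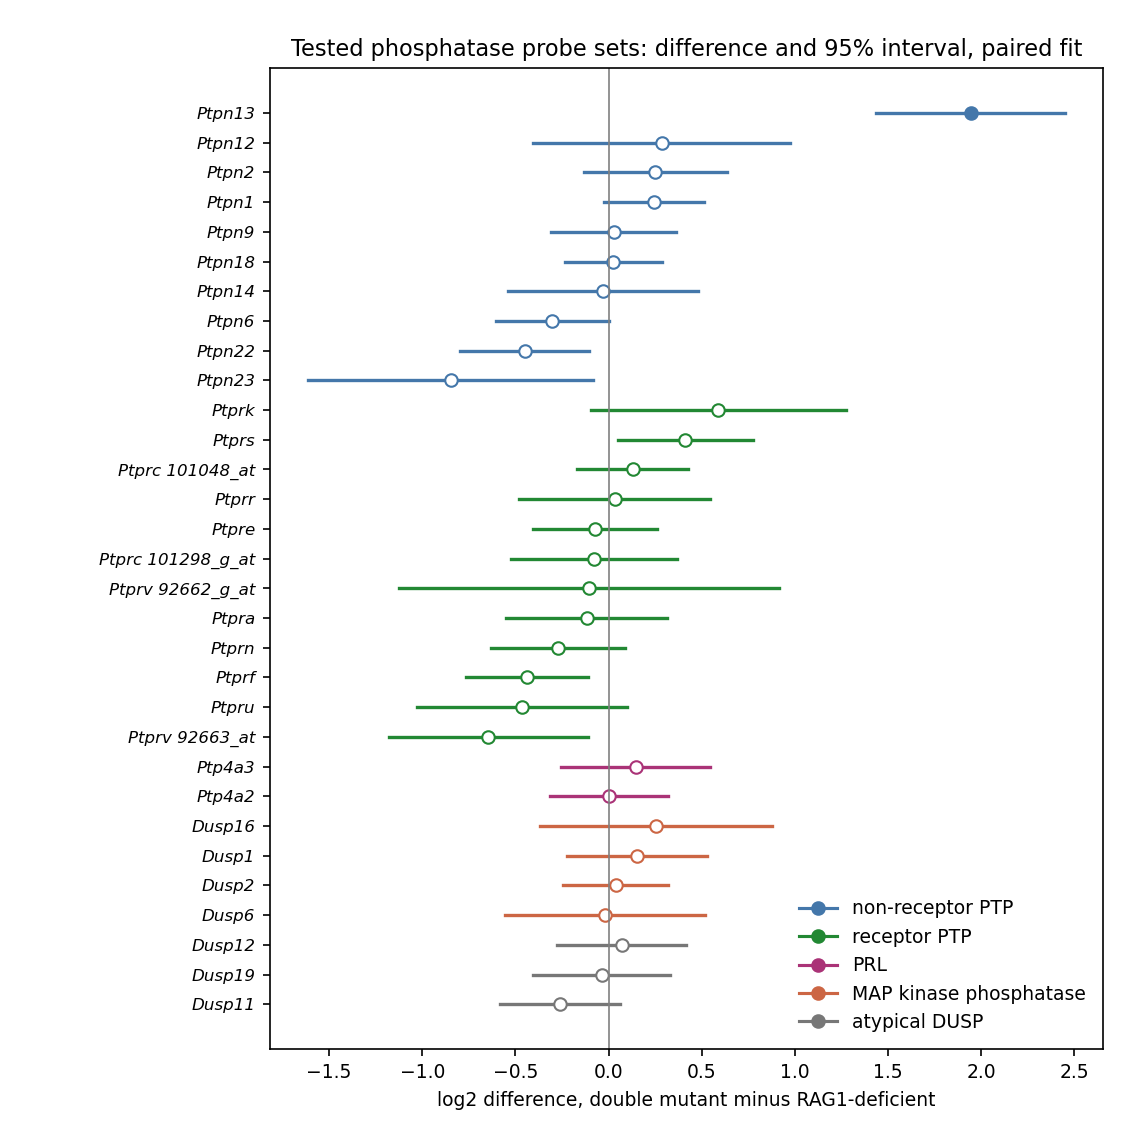
Log2 difference, double mutant minus RAG1-deficient, of the 31 tested phosphatase probe sets (points) with the 95% interval of the paired limma fit (bars), coloured by class; a filled point passed at an adjusted p under 0.05. Ptpn13 at 1.94 is the only filled point, and the other 30 lie between -0.85 and 0.59.

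Neither tested phosphatase of the PRL family, small prenylated enzymes linked to cell growth, passed. Ptp4a2 read 1845, 2111 and 2388 against 1920, 2497 and 1951, with a log2 difference of 0.003 and a 95% interval of -0.31 to 0.32 in the paired limma fit. Ptp4a3 read 1268, 1558 and 939 against 1125, 1543 and 1454, with 0.15, most of it from the Thy pair (0.62). The probe set of Ptp4a1 is assigned to 2 genes and was left out by the rule. The 3 tested atypical dual-specificity phosphatases had log2 differences from -0.26 to 0.07. Dusp11, which acts on RNA, read 714, 722 and 507 against 567, 578 and 454, lower in each pair by 0.15 to 0.32, and did not pass (paired limma adjusted p = 0.472). Dusp12 and Dusp19 had log2 differences of 0.07 and -0.04.

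The level of 3 of the 4 tested MAP kinase phosphatases varied with the title style of the arrays far more than with the group. Dusp1, the immediate early phosphatase of p38 and JNK, read 161, 345 and 1094 in the RAG1-deficient and 221, 365 and 1075 in the double mutant arrays. Its level thus differed several-fold between styles while the arrays of a style stayed close. Dusp2, a nuclear phosphatase of activated lymphocytes, read 778, 1147 and 1456 against 788, 1149 and 1557. Dusp6, the cytoplasmic ERK phosphatase, read 161, 53.6 and 233 against 160, 44.0 and 260, with the Rag arrays lowest in both groups. The log2 differences between the groups were 0.15, 0.04 and -0.02, with 95% intervals of -0.22 to 0.53, -0.24 to 0.32 and -0.55 to 0.52 in the paired limma fit. In the unpaired fit the interval of Dusp1 ran from -1.47 to 1.78, since the spread between styles then counts as error. Dusp16, a JNK phosphatase, read 111, 93.3 and 73.5 against 102, 130 and 111 and did not pass (log2 difference 0.26, paired adjusted p = 0.738). Dusp8 lay under the filter.

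The variance of each probe set over the 6 arrays was split into title style, group and remainder. Title style, which has 2 degrees of freedom against 1 for group, took 98.6% for Dusp1, 99.5% for Dusp2 and 99.2% for Dusp6, and group at most 0.588%. For Dusp16, the other tested MAP kinase phosphatase, style took 23.4% and group 38.9%. The immediate early genes Fos and Jun were also highest on the Thy arrays, at 1157 and 1543 for Fos and 862 and 628 for Jun, while the other 4 arrays did not exceed 100.4 for Fos and 143 for Jun. Title style took 98.5% and 93.8% of their variance. Among 17 tested genes of the immediate early list, 14 had a larger share for style than for group. Across the family this held for 25 of 31 probe sets (80.6%), beside 85.6% of all tested probe sets, and the median share of style was 66.0% against 72.1% over all. Ptpn13 was at the other end, with 1.32% for style and 93.5% for group, followed by Ptpn6 with 69.5%, Ptpn22 with 61.6% and Ptprs with 51.1% for group. Markers of other cells also differed between styles. The summed erythroid markers were 585 and 1238 on the Thy arrays against 16943 to 30919 elsewhere, and the summed dendritic markers 4892 and 4715 against 9578 to 28778. What the styles stand for is not given in the labels, and the part of these cells in the levels of Dusp1, Dusp2 and Dusp6 was not tested.

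**Figure D3:**
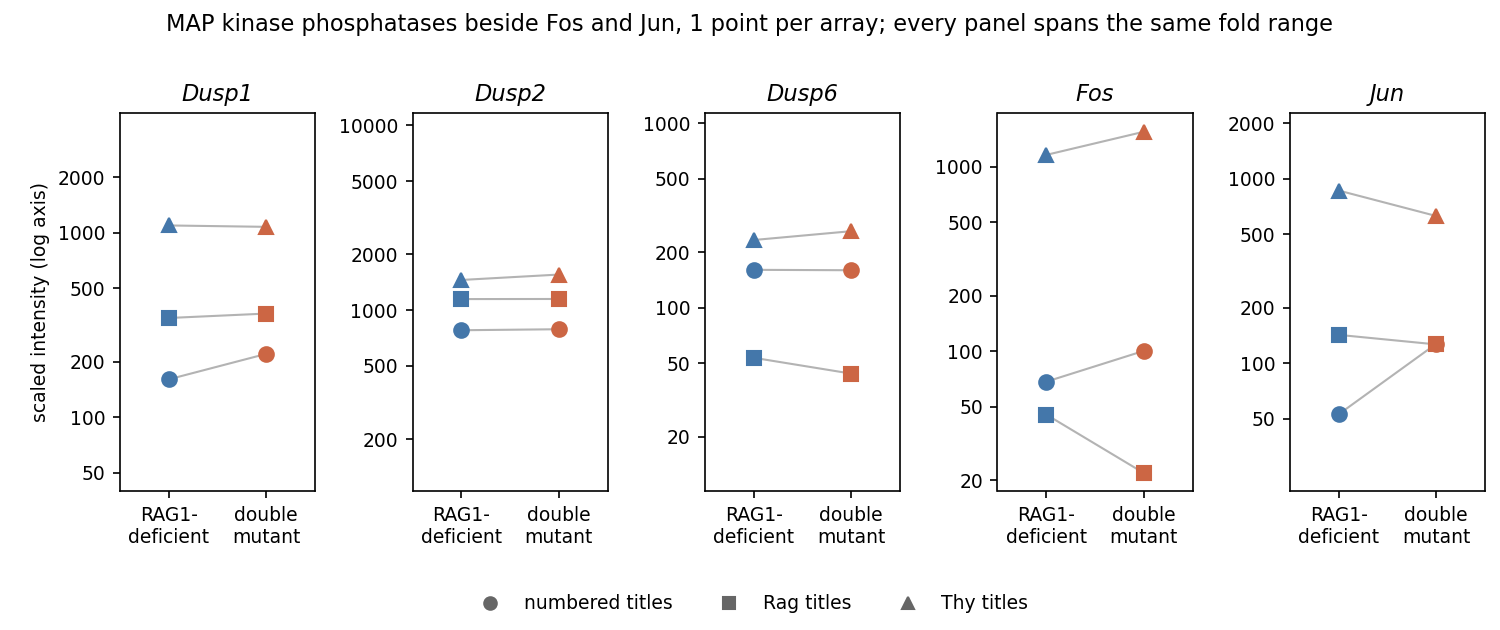
Scaled intensity on a log axis of 3 MAP kinase phosphatases and of the immediate early genes Fos and Jun, 1 point per array in RAG1-deficient (blue) and double mutant (orange) samples, with the marker giving the title style and a grey line joining the arrays of a style. The Thy arrays are highest in every panel, and the lines of Dusp1, Dusp2 and Dusp6 are nearly level, with log2 differences of 0.15, 0.04 and -0.02.

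The window before the Dusp1 start (chr17:26508473-26508722, minus strand, RefSeq build GRCm38.p6) is shown because it carries TGACGTCA, the binding motif of CREB and related factors of stimulated cells. The motif reads the same on both strands and is in capitals.
Dusp1: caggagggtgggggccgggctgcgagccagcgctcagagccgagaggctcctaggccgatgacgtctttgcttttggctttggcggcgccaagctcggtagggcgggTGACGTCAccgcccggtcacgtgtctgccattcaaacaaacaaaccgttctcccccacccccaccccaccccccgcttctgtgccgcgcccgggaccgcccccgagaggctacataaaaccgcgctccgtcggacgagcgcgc
At 1 or more starts the motif was found in 4 of the 34 member genes with a window (11.8%), Dusp1, Dusp8, Ptpn11 and Ptpru, and in 1.77% of all 27025 genes. The motif holds a CG itself, and these shares were not matched for the higher CG counts of the members. The share over all genes was also not limited to genes on the array. The windows of Dusp2 and Dusp6 did not hold the motif. The AP-1 motif TGANTCA, also the same on both strands and not overlapping with the first, was found in 1 member gene (2.94%), Ptpre, and in 7.82% of all genes. By window the shares over all 32851 were 1.55% and 6.75%. These are matches of letters within 250 bases only.

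**Figure D4:**
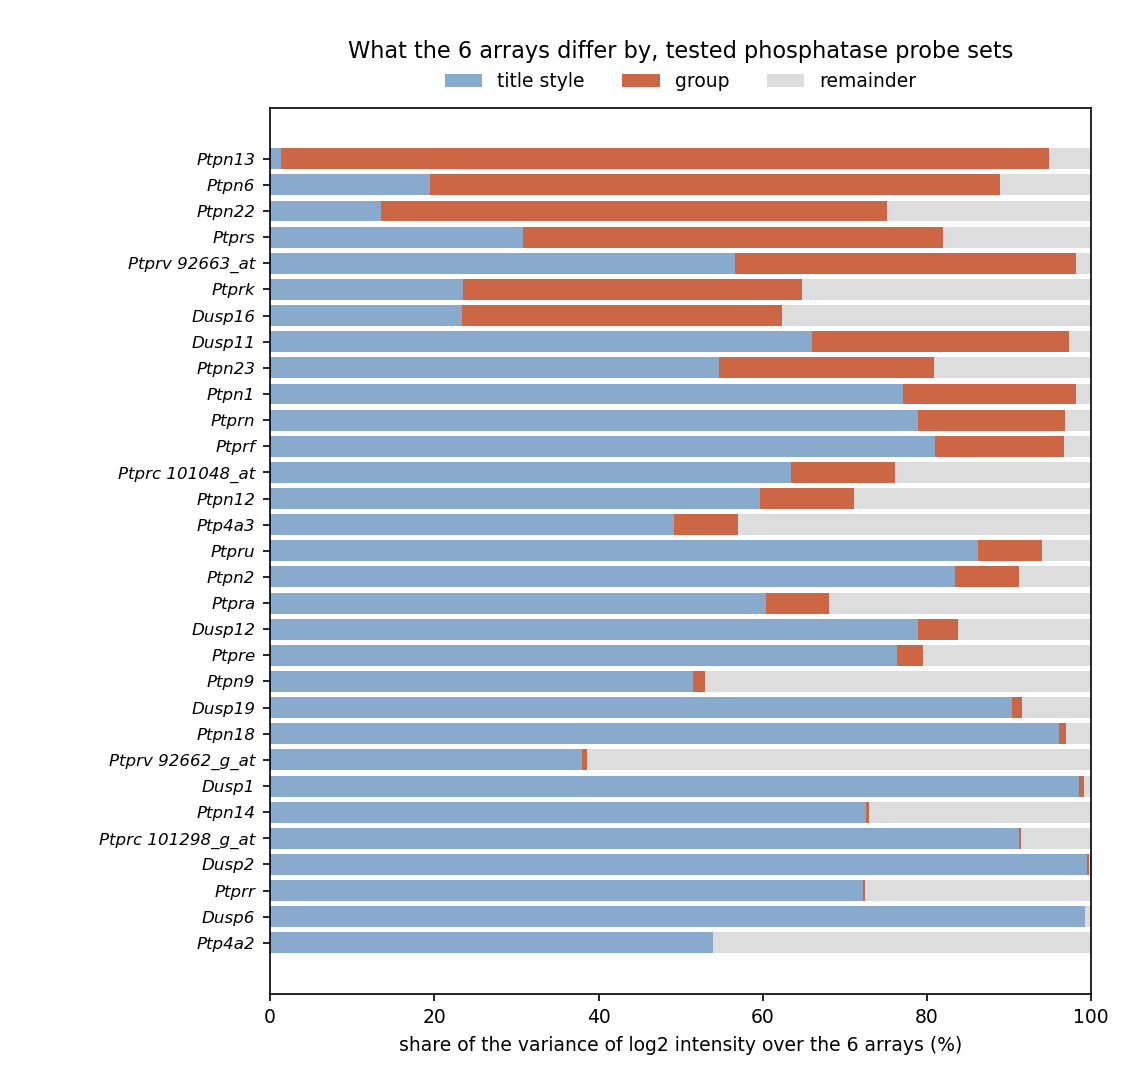
Share of the variance of log2 intensity over the 6 arrays that lay between title styles (blue), between groups (orange) and in the remainder (grey), for the 31 tested phosphatase probe sets ordered by the group share. Ptpn13 has the largest group share, 93.5%, and for 25 of 31 the style share is the larger one.

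Dusp9, an ERK phosphatase encoded on the X chromosome, was higher in the double mutant by 1 of its 2 probe sets, and both were too dim to be tested. That probe set read 17.7, 31.9 and 61.2 in the RAG1-deficient and 86.2, 87.8 and 112 in the double mutant arrays, without overlap and in all 3 pairs. Of all probe sets under the filter, 2.03% were higher without overlap. The filter asks for more than 86.5 on at least 3 arrays, which this probe set met on 2 and missed on the numbered double mutant array by a small margin. Fitted without the filter its difference was 1.04 ± 0.29 (SE) on the log2 scale, short of the threshold (limma adjusted p = 0.327 paired and 0.99991 unpaired). The second probe set of Dusp9 overlapped, at 141, 10.1 and 51.3 against 54.6, 32.8 and 121. Its mean over all arrays was slightly higher (68.3 against 66.2), and its log2 difference was 0.21, with -1.08 in the numbered pair. Among tested members nearest to the filter, Dusp6, Ptpn12 and a probe set of Ptprv had 4 arrays above it. Of the genes next to Dusp9, taken as for Ptpn13, Zfp92, Bgn, Pnck, Slc6a8 and Bcap31 had probe sets of 1 gene. The groups overlapped for each of these probe sets, with log2 differences from -0.28 (Pnck) to 0.38 (a probe set of Slc6a8).

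Counted as a whole, the family had 1 of 31 tested probe sets called in the paired limma fit, where 0.563% of all were called higher, and 0 in the unpaired fit, where 0.0393% were. The differences otherwise spread around 0. Of the 31 tested probe sets of 29 genes, 16 lay above and 15 below 0, with a median log2 difference of 0.003, beside -0.002 over all tested probe sets, of which 49.6% lay above 0. Before adjustment, p was under 0.05 in the paired limma fit for 2 members higher (Ptpn13, Ptprs) and 4 lower (Ptpn22, Ptpn23, Ptprf, 1 probe set of Ptprv), where 7.73% of all tested probe sets were higher and 5.4% lower. The unpaired fit had 1 of 31, Ptpn13, beside 3.19% overall. Groups did not overlap for 2 members that were higher and 2 that were lower, beside 4.21% and 2.92% of all tested probe sets. The size of 1 on the log2 scale was reached by 1 member, beside 1.78% overall. The filter kept members that were bright in at least 3 arrays, so these counts describe the brighter part of the family: 13 of 42 genes had no tested probe set.

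Genes that work with or against these phosphatases were read from lists drawn up with earlier results known. Other tyrosine and lipid phosphatases outside the naming rule had 8 genes above and 6 below 0 of 14 tested (median 0.07), and 0 passed in either limma fit. Before adjustment, p was under 0.05 in the paired fit for 2 of their 22 probe sets higher and 0 lower, and the unpaired fit 1. For this count and those of the next lists, the shares over all tested probe sets were 7.73% higher and 5.4% lower (paired). In the unpaired fit the share was 3.19%. The kinases and adaptors of the T cell receptor had 3 above and 14 below 0 of 17 (median -0.17), and 0 passed in either limma fit. The paired fit had an unadjusted p under 0.05 for 0 of their 21 probe sets higher and 5 lower, and the unpaired fit 2. Genes of the MAP kinase cascade had 14 above and 9 below 0 of 23 (median 0.10), ERK feedback genes 5 and 4 of 9 (0.13), and JAK and STAT genes 8 and 7 of 15 (0.04), and 0 of these passed in either limma fit. Counted the same way, the paired fit had 1 MAP kinase probe set higher and 1 lower of 27, 0 ERK feedback probe sets higher and 1 lower of 9, and 5 JAK and STAT probe sets higher and 2 lower of 18. The unpaired fit had 1, 0 and 0 in these lists. The immediate early list had 9 genes above and 8 below 0 of 17 (median 0.04). Of its 20 probe sets 1 passed, as lower in the paired limma fit, where 0.105% of all tested probe sets did. This was Btg2, an antiproliferative gene (log2 difference -0.78, paired adjusted p = 0.0328). Its unadjusted counts as a list were 0 higher and 2 lower in the paired fit and 1 in the unpaired fit. Chosen after their values were seen, 2 substrate kinases of the Dusp family were higher without overlap and did not pass. Of all tested probe sets 4.21% were higher without overlap. Mapk8, which encodes JNK1, read 593, 418 and 456 against 844, 628 and 727 (log2 difference 0.57, paired adjusted p = 0.155). Mapk14, which encodes p38 alpha, read 1082, 1453 and 1450 against 1698, 1467 and 1529 (0.24, paired adjusted p = 0.562). Cdkn3, a phosphatase of cyclin-dependent kinases chosen in the same way, read 172, 194 and 174 against 236, 478 and 275 (0.74, paired adjusted p = 0.216).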

How the data were processed

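Scaled Affymetrix intensities were deposited by the authors as 1 linear value per probe set and array, with no detection calls used here; the scaling software is not given in the sources used here. The 2%-trimmed means of the arrays lay between 500.29 and 500.37, so the deposited scaling was kept. Control probe sets were left out, and genes were named from the platform annotation, where 10833 probe sets have 1 gene, 396 several and 1193 none. Intensities were set to log2(intensity + 23), the 20th percentile, and probe sets above 86.5, the 40th percentile, on at least 3 of 6 arrays were tested with limma 3.58.1 in R 4.3.3 (lmFit, eBayes with trend, two-sided, Benjamini-Hochberg over all tested). The script was tested on simulated data. Group was the only term (unpaired fit); the paired fit adds title style as a block. Arrays of a style correlated at 0.570, 0.736 and 0.602 in their deviations from the group means, and other pairs at -0.544 to 0.0394, so the styles were taken as pairs; the labels do not state a pairing. With 3 arrays against 3 an exact permutation test cannot go below 0.1; precision is limited by how few arrays there are. Promoter windows came from a RefSeq table.

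Named with values in every sample were members that passed in either fit, tested members whose groups did not overlap, the highest-mean probe set of each class and members known in T cells. Ptpn23, Ptprf, Ptprk, Ptp4a3, Dusp16 and Dusp9 fall outside this rule and were given values after these had been seen. A gene with several probe sets was represented by the one with the highest mean. The members and lists were chosen with earlier results of these data known. The alternatives were the block, pseudocounts of 1 and 100, no filter or the 60th percentile, quantile normalization, no trend and leaving out arrays or pairs. Ptpn7, Dusp4, Dusp5, Dusp10, Dusp14 and Dusp22, also known in T cells, were not analysed here.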

Additional observations from a re-analysis of the deposited data

How the results depend on the processing

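No phosphatase probe set was called lower under any alternative run. The count called higher in the unpaired limma fit was 0, and became 1 with title style as a replicate block and 1 with the filter at the 60th percentile, Ptpn13 in both cases; leaving out 1 array at a time gave 0 to 0. With the block the count was 1, and became 0 with no filter and 0 without the variance trend; leaving out 1 title-style pair at a time gave 0 to 1, with 0 without the Thy pair. The log2 difference of Ptpn13 stayed between 1.70 and 2.26 under all of these. Its adjusted p in limma ran from 0.0482 to 0.459 without the block and from 9.34e-09 to 0.111 with it. Ptpn22, Ptpn6 and Ptprs kept their direction and did not pass under any alternative. Of the 25 other tested member genes, 17 changed sign under at least 1 alternative and 0 passed under any. Over all probe sets the paired fit called 43 higher and 8 lower, but 5 and 0 with no filter, 8 and 1 without the trend, 24 and 6 with a pseudocount of 1, 17 and 0 after quantile normalization, 12 and 2 leaving out the numbered arrays, 127 and 64 leaving out the Rag arrays and 3 and 0 leaving out the Thy arrays; the cause was not tested. Low signal limits the 13 member genes without a tested probe set.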
